A study of Mus musculus with 2 samples.

Results

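Of the 34745 genes listed in the expression tables of mouse bone marrow LSKs, 9 encode the transcription factors described here: the C/EBP genes Cebpa, Cebpb, Cebpd, Cebpe, Cebpg and Cebpz, the Ets factor Spi1 (Pu.1), the zinc finger repressor Gfi1 and Myb. They were picked by gene symbol, and all 9 had at least 20 reads over both libraries. The cells were lineage-negative, Sca1-positive and c-Kit-positive (LSKs) from Scl/tTA-BA mice of the C57BL/6 strain, sorted from bone marrow with doxycycline still given (week-0) or after its withdrawal for 3 weeks (week-3). Both groups carried the same pair of transgenes, a doxycycline-repressed activator (tTA) driven by Scl regulatory sequence and BCR/ABL (BA) under its control, so week-0 mice had the transgene without induction. BA is switched on only in those LSKs in which the Scl driver is active. Each group was 1 library from the cells of 3 mice mixed together, and the age of the mice is not stated in the sources used here. With 1 library per time point the spread between mice is unknown, so no difference has a replicate check and no p-value is given.

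C/EBP proteins are basic leucine zipper (bZIP) factors that bind DNA as pairs, with themselves or with one another. C/EBPα is needed for the step from multipotent progenitors to granulocyte and monocyte progenitors, C/EBPε for the later stages of granulocyte maturation, and C/EBPβ for granulocyte production under infection or cytokine stimulation. Pu.1 works with them on myeloid receptor and granule genes, Gfi1 represses monocyte and stem cell genes in favour of neutrophils, and Myb keeps progenitors dividing and switches on the first granule genes. BA causes chronic myelogenous leukemia (CML), a disease marked by an excess of granulocytes.

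The promoters of Cebpa, Cebpb and Gfi1 are shown because, among the genes with a promoter in the table used, these differed most between the libraries, with Cebpa and Gfi1 higher and Cebpb lower at week-3. Each run goes from 150 bases before the RefSeq start (GRCm38.p6) to 50 bases after it, on the strand of the gene. Capitals mark matches, on either strand, to the C/EBP motif TTGCNNAA, the Pu.1 motif GAGGAA, the Gfi1 motif AATCNNNGC, the Myb motif AACNGNC, the TATA box TATAAA or the CCAAT box CCAAT. The windows are chr7:35119143-35119342 on the plus strand for Cebpa, chr2:167688765-167688964 on the plus strand for Cebpb and chr5:107725756-107725955 on the minus strand for Gfi1.
Cebpa: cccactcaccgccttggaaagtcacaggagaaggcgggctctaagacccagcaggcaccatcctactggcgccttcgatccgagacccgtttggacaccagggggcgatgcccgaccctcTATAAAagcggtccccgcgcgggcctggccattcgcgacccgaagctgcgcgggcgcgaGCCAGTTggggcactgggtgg
Cebpb: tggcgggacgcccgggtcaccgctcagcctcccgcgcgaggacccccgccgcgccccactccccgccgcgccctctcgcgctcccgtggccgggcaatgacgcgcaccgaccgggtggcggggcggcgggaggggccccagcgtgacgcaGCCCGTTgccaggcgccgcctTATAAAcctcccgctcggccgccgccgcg
Gfi1: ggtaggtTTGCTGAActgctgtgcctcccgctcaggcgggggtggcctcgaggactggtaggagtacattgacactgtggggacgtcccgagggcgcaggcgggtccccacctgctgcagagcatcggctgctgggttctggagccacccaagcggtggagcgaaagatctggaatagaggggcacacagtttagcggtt

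Position 1 is the first transcribed base, with no position 0. In these windows Cebpa had a TATAAA match from -30 to -25 and a Myb match from 30 to 36. Cebpb had a TATAAA match from 22 to 27, which is after the start and not before it, and a Myb match from 1 to 7. The Gfi1 window had the single C/EBP match among the member promoters, from -143 to -136, and the window of a second Gfi1 start held none of the 6 motifs. All of the Gfi1 window shown, with this match, lay inside the deposited limits of the gene (107716657 to 107726036, minus strand). The gene as deposited thus begins upstream of the RefSeq start used here. No 2 of the capital runs overlapped. Promoters were found for 5 of the 9 genes. Of all 32851 mouse promoter windows in the RefSeq table, each from 250 bases before to 50 after a start, 10.8% held TTGCNNAA, 28.3% GAGGAA, 10.3% AATCNNNGC, 32.8% AACNGNC, 13.6% TATAAA and 37.4% CCAAT. A match is a description of the letters only. Over that longer window, Cebpb was richer in G and C (80.7%) than 99.2% of all promoter windows, Cebpa (67.3%) than 86.2% and Gfi1 (58.0%) than 65.4% of them.

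The libraries had 6356164 (week-0) and 3886695 (week-3) reads on genes, so the limit that a count of 0 allows, 3 reads, stands for 0.472 and 0.772 CPM (reads scaled by the library total). Levels are FPKM as deposited, meaning reads scaled by exon length and by the reads of the library. The ratio of a gene is its FPKM at week-3 over that at week-0, with a 95% exact Clopper-Pearson interval from its reads. The intervals hold counting error alone, and amplified reads are not independent molecules. Less RNA per cell and fewer cells of a type cannot be told apart in a mixed library. The sort markers were present in both libraries, Kit with 1391 and 580 reads and Ly6a (Sca1) with 434 and 199. Of 7 LSK markers 3 were lower and 1 higher by the limits of 0.5 and 2 times used below (summed FPKM 265.4 and 109.8). Of the lineage panel, Ly6g had 5 and 5 reads and Cd3e 5 and 0, while Itgam had 30 and 30 and Ptprc, a gene of nearly all blood cells, 707 and 478. Neither Itgam nor Ptprc passed a limit, and the summed FPKM of the panel was 6.22 and 6.64. Markers of other cell types differed between the libraries. All 10 mast cell markers were at least 2 times higher at week-3, with a summed FPKM of 133.7 before and 3292 after withdrawal, and the tryptase gene Tpsb2 was at 0 reads at week-0. Of 9 neutrophil markers with enough reads 8 were higher (summed FPKM 224.5 and 972.6), and of 6 monocyte markers 3 were higher (77.4 and 239.0). All 9 erythroid markers (1332 and 95.6) and 5 of 6 B and plasma cell markers (1875 and 217.0) were at most 0.5 times their week-0 level. Of 9 megakaryocyte markers 2 were lower (93.2 and 57.6). Of 7 T cell markers 2 had enough reads and 1 of these was lower (15.9 and 7.20, with Cd3e and Cd8a at 0 reads at week-3). The part of these cell types in the values of the 9 genes was not tested.

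At week-3, 4 of the 9 genes, Gfi1, Cebpe, Cebpa and Myb, had a ratio of at least 2 (44.4%), and 1, Cebpb, had a ratio of at most 0.5 (11.1%). Among the 12192 genes with at least 20 reads over both libraries, 10.6% reached a ratio of 2 or more and 15.6% one of 0.5 or less. The other 4 genes, Spi1, Cebpd, Cebpg and Cebpz, lay between these limits. The median log2 ratio of the 9 genes was 0.39, with a range from -1.68 to 2.20, and that of all 12192 genes was 0.07. With limits of 1.5 and 0.67 the same 4 and 1 genes passed, where 23.7% and 24.8% of all genes did. They also passed when the interval had to lie wholly on one side of a ratio of 1 (10.3% of all genes higher and 14.6% lower). An edgeR exact test with an assumed biological coefficient of variation of 0.1 and an adjusted p under 0.05 compares the libraries and not the conditions, and added to the limits of 2 and 0.5 it kept the same 5 genes (9.42% of all genes higher and 13.5% lower). With an assumed coefficient of 0.4, none of the 9 genes passed, where 0.410% of all genes were higher and 1.63% lower.

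**Figure D1:**
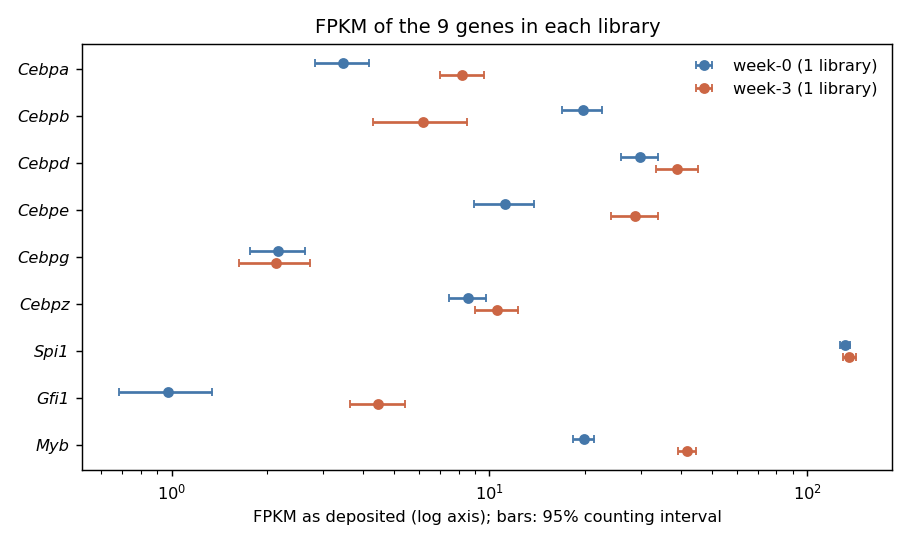
FPKM as deposited (log axis) of the 9 genes in the week-0 library (blue) and the week-3 library (orange), with 1 library per time point and bars for the 95% counting interval. The intervals of Cebpa, Cebpb, Cebpe, Gfi1 and Myb do not meet between the libraries, while those of Cebpg and Spi1 overlap widely.

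Cebpa, the C/EBP gene of granulocyte commitment, lies on chromosome 7 (35119293 to 35121928, plus strand, GRCm38). Its reads numbered 105 and 153 and its FPKM was 3.45 at week-0 against 8.22 at week-3, a ratio of 2.38 (95% interval 1.85 to 3.08). The interval reached below 2, so counting error alone leaves the side of the limit undecided. Cebpe, the gene of late granulocyte maturation and secondary granules, on chromosome 14 (54710363 to 54712174, minus strand), had 88 and 138 reads. Its FPKM was 11.2 at week-0 and 28.7 at week-3, a ratio of 2.56 (interval 1.95 to 3.39). Both granulocytic C/EBP genes were therefore higher in the week-3 library, in which 8 of 9 neutrophil markers were higher too, and the part of such cells in these values was not tested. The reads of Cebpa over those of Cebpe were 1.19 at week-0 and 1.11 at week-3, a change of 0.929 times (interval 0.634 to 1.36).

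Cebpb, which is induced by cytokines and stress, went the other way. On chromosome 2 (167688915 to 167690418, plus strand) it had 188 reads in the week-0 and 36 in the week-3 library. Its FPKM was 19.7 and 6.16, a ratio of 0.313 (interval 0.213 to 0.449), which is 3.19 times lower at week-3. Its whole interval lay under 0.5. Cebpd, often induced together with Cebpb in acute responses, did not share this difference. On chromosome 16 (15887286 to 15888466, plus strand) it had 223 and 179 reads, an FPKM of 29.7 and 39.0, and a ratio of 1.31 (interval 1.07 to 1.61). Cebpb had 0.843 times the reads of Cebpd at week-0 and 0.201 times at week-3, so this balance was 4.19 times lower (interval 2.75 to 6.48).

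Cebpg encodes a small C/EBP protein that lacks a strong activation domain and pairs with other bZIP proteins. It lies on the minus strand of chromosome 7 (35046422 to 35056573), near Cebpa. It had 105 and 63 reads, an FPKM of 2.16 and 2.12, and a ratio of 0.981 (interval 0.706 to 1.35), so a difference was not detectable at this depth. Cebpz carries the family name, but its protein is a CCAAT-binding and nucleolar factor without the C/EBP leucine zipper. On chromosome 17 (78919006 to 78937070, minus strand) it had 222 and 167 reads, an FPKM of 8.57 and 10.5, and a ratio of 1.23, with an interval that ended at 1.51 and only just left out a ratio of 1.

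Spi1, the gene of Pu.1, had more reads than any other member. On chromosome 2 (91082390 to 91115756, plus strand) it had 2766 and 1740 reads, with an FPKM of 131.7 at week-0 and 135.5 at week-3. The ratio was 1.03 (interval 0.968 to 1.09), and its log2 value of 0.041 turned to -0.071 with TMM and -0.048 with median-of-ratios scaling. By deposited FPKM, Spi1 was above 96.8% of the 12192 genes at week-0 and above 96.6% at week-3. The exon lengths described below bear on such a rank, which was not recomputed with merged exons. Gfi1, on chromosome 5 (107716657 to 107726036, minus strand), had the largest ratio of the members. It had 37 and 104 reads and an FPKM of 0.972 and 4.47, a ratio of 4.60 (interval 3.13 to 6.88), above that of 98.3% of all 12192 genes. It was also the member with the fewest reads at week-0, and with a pseudocount of 1 FPKM its log2 ratio was 1.47 in place of 2.20. Its whole interval lay above 2. Myb, on chromosome 10 (21124936 to 21160905, minus strand), had 676 and 875 reads and an FPKM of 19.8 and 41.9. Its ratio was 2.12 (interval 1.91 to 2.34), and its log2 ratio of 1.08 was 0.97 after TMM and 0.99 after median-of-ratios scaling, which puts Myb just below the limit and leaves 3 higher members.

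**Figure D2:**
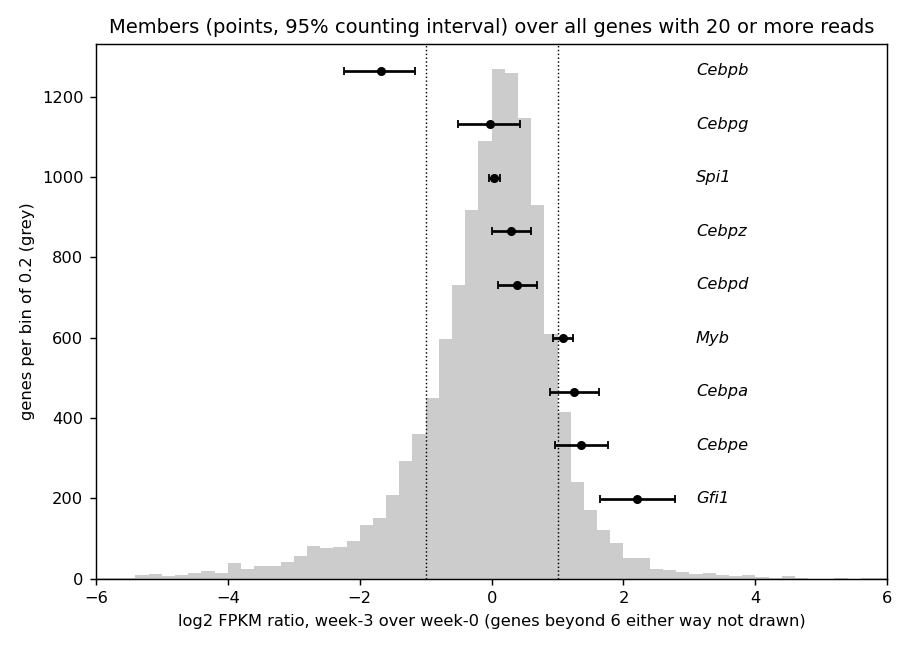
Log2 FPKM ratio of week-3 over week-0 for the 9 genes (points with 95% counting intervals) over the distribution of all genes with 20 or more reads (grey, genes per bin), with dotted lines at ratios of 0.5 and 2. Gfi1 at 2.20 and Cebpb at -1.68 have intervals beyond the dotted lines, those of Cebpa, Cebpe and Myb cross the line at 2, and the other genes sit in the middle of the distribution.

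The deposited FPKM use exon lengths that bear on comparing levels between genes, though not on ratios between the libraries. The length behind the FPKM equalled the summed length of all distinct annotated exons within 1% for 69.7% of 12172 genes, counting a base again for each exon that holds it. For Cebpa this length was 4787 bases, although the gene spans 2636 bases, since the exons of its 2 annotated transcripts overlap. Levels between the 9 genes are therefore compared here as FPKM recomputed with merged exons (GENCODE M21 within the deposited gene limits, or the deposited length where shorter). On this scale Cebpa was at 6.27 (week-0) and 14.9 (week-3) and Gfi1 at 1.83 and 8.40. At week-0 the order from the top was Spi1 (161.5), Cebpd (29.7), Myb (19.8), Cebpb (19.7), Cebpe (11.2), Cebpz (8.57), Cebpa, Cebpg (2.94) and Gfi1. The interval of the ratio between neighbours in this order held 1 for Myb and Cebpb alone. At week-3 the order was Spi1 (166.1), Myb (41.9), Cebpd (39.0), Cebpe (28.7), Cebpa, Cebpz (10.5), Gfi1, Cebpb (6.16) and Cebpg (2.88). There Myb and Cebpd, Cebpz and Gfi1, and Gfi1 and Cebpb could not be separated by counting error. Cebpb went from the fourth to the eighth place and Cebpa from the seventh to the fifth.

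The 5 C/EBP genes among the members that encode bZIP proteins were compared as the share of each in their summed level per merged length. Other bZIP genes were left out, among them Ddit3 (deposited FPKM 101.0 at week-0 and 9.28 at week-3), so the shares hold for these 5 alone. Cebpd held 42.6% at week-0 and 42.6% at week-3. Cebpb held 28.2% and 6.72%, Cebpe 16.0% and 31.3%, Cebpa 8.98% and 16.3%, and Cebpg 4.21% and 3.15%. Cebpb was thus the second most abundant of the 5 at week-0 and the fourth at week-3, behind Cebpe and Cebpa. With the deposited lengths, Cebpa held 5.21% (week-0) and 9.76% (week-3), and Cebpb 29.7% and 7.31%. The summed FPKM of the 5 genes was 66.2 at week-0 and 84.2 at week-3.

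**Figure D3:**
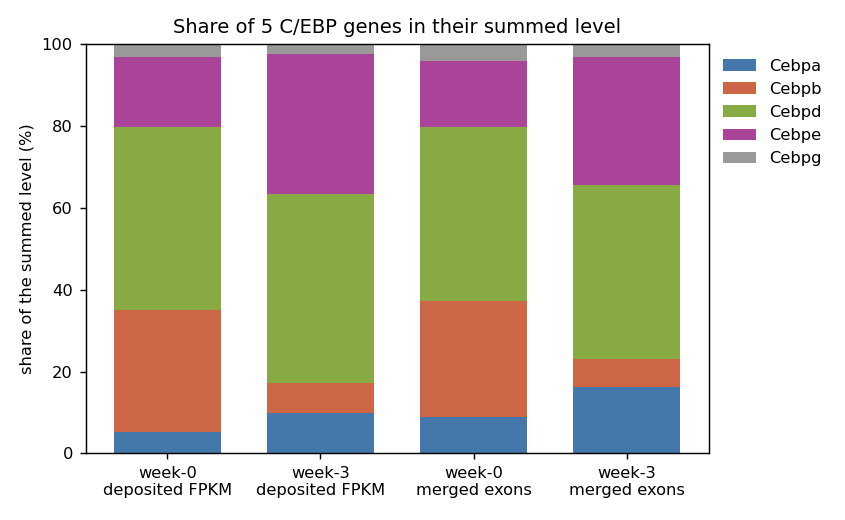
Share (%) of Cebpa, Cebpb, Cebpd, Cebpe and Cebpg in their summed level, in the week-0 and week-3 libraries, from the deposited FPKM (left pair of bars) and per merged exon length (right pair). On both scales the Cebpb segment is small at week-3, and the Cebpe and Cebpa segments are larger than at week-0.

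Ratios between genes within a library do not depend on how the libraries were scaled. The reads of Cebpa over those of Cebpb were 0.559 at week-0 and 4.25 at week-3, 7.61 times higher (95% exact conditional interval 4.83 to 12.1). Per merged length, Cebpa stood at 0.319 of Cebpb at week-0 and at 2.42 times Cebpb at week-3, so their order turned. Against Spi1, the reads of Gfi1 were 4.47 times higher at week-3 (interval 3.03 to 6.72), those of Cebpa 2.32 times (1.78 to 3.02) and those of Myb 2.06 times (1.83 to 2.32). Pu.1 and GATA factors are known to oppose each other between the myeloid and the erythroid lines. The ratio of Spi1 to Gata1 was 1.21 times its week-0 value (interval 0.837 to 1.76), which counting error does not separate from 1, and that of Spi1 to Gata2 was 1.49 times (1.30 to 1.71). Cebpa over Gata2, a pair known to act in the choice between granulocytes and mast cells or basophils, was 3.45 times higher at week-3 (2.60 to 4.60), in a library in which all 10 mast cell markers were also higher. Gfi1 over its relative Gfi1b, which acts in erythroid cells and megakaryocytes, was 4.02 times higher (2.54 to 6.43).

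**Figure D4:**
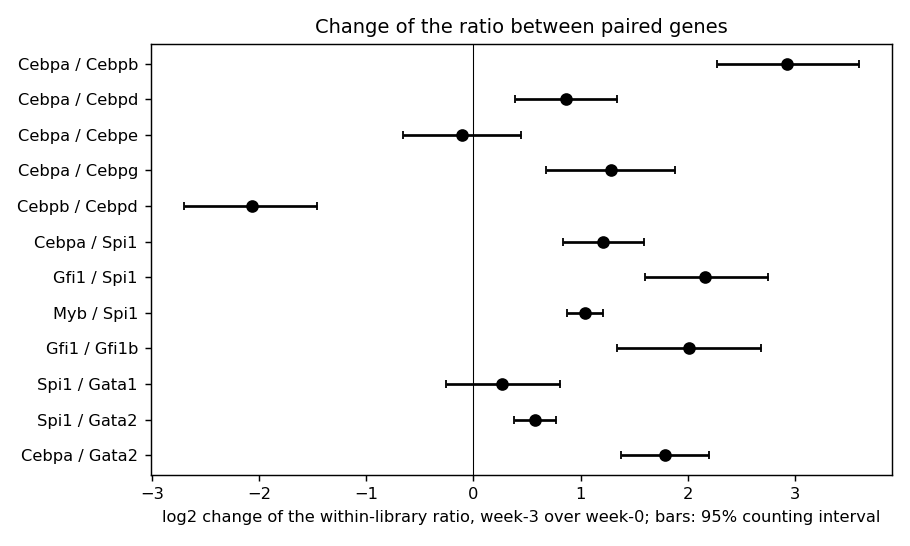
Log2 change, from week-0 to week-3, of the read ratio between paired genes within a library, with 95% counting intervals. Cebpa over Cebpb (2.93) and Gfi1 over Spi1 (2.16) lie furthest to the right, Cebpb over Cebpd (-2.07) furthest to the left, and the intervals of Cebpa over Cebpe and Spi1 over Gata1 hold 0.

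The genes around these factors were grouped into 8 lists by their known roles. Over the 8 lists, 71 genes had enough reads, of which 15 had a ratio of at least 2 (21.1%, against 10.6% of all genes) and 10 a ratio of at most 0.5 (14.1%, close to the 15.6% of all genes). The granule and myeloid list held 12 of the 15. The bZIP partners and relatives of C/EBP were lower more often than higher, with 4 of 9 genes at a ratio of at most 0.5 (44.4%, against 15.6% of all genes) and 1 of 9 at a ratio of at least 2. Ddit3 (CHOP), a stress-induced protein that pairs with C/EBP and blocks its DNA binding, had 1477 and 83 reads, an FPKM of 101.0 and 9.28, which is 10.9 times lower. Atf3, another stress-induced bZIP factor, had 9596 and 102 reads, an FPKM of 589.0 and 10.2, and was 57.5 times lower. Atf4, a partner of C/EBPβ and C/EBPγ in the amino acid response, had 3187 and 864 reads and was 2.26 times lower, and Dbp, a PAR-type bZIP factor, had 47 and 12 reads and was 2.40 times lower. Batf, an AP-1 type bZIP factor, had 155 and 198 reads and a ratio of 2.09. The interval of its log2 ratio, from 0.75 to 1.38, reached below the limit, and with TMM or median-of-ratios scaling 0 of the 9 genes were higher. Cebpb was on the low side together with Ddit3, Atf3, Atf4 and Dbp, whereas Cebpd and Cebpg were not. Whether these lower values have a common source was not tested.

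The Tribbles proteins Trib1 and Trib2 bring the ubiquitin ligase Cop1 to C/EBPα and so lead to its destruction, which is not known of Trib3. Of the 4 genes of this list 3, all of them Tribbles genes, had a ratio of at most 0.5 (75.0%, against 15.6% of all genes). Trib1 had 1241 and 243 reads, an FPKM of 28.5 and 9.11, and was 3.12 times lower at week-3. Trib3 had 67 and 11 reads and was 3.72 times lower. Trib2 had 20 and 5 reads, and the interval of its log2 ratio, from -3.06 to 0.17, held 0. Cop1, listed as Rfwd2, had 106 and 101 reads and a log2 ratio of 0.64 (interval 0.23 to 1.05). Protein levels were not measured here.

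Among the partners, antagonists and Ets relatives of Pu.1, 1 of 11 genes was lower by the limits (9.09%, against 15.6% of all genes). None was higher (against 10.6% of all genes), and the median log2 ratio was -0.46. Irf4, which binds DNA together with Pu.1 in B cells and plasma cells, had 42 reads before withdrawal and 0 after it, at least 8.56 times lower when 3 reads are taken as the floor at week-3. In the same library 5 of 6 B and plasma cell markers were lower, and their part in the value of Irf4 was not tested. Irf8, the partner of Pu.1 in monocytes and dendritic cells, had 896 and 977 reads and a log2 ratio of 0.83 (interval 0.70 to 0.97). Runx1, which acts upstream of Spi1, had 1240 and 524 reads and a log2 ratio of -0.53.

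The 8 genes for the corepressors of Gfi1 and its relative Gfi1b included 1 lower gene (12.5%, against 15.6% of all genes). This was the LIM protein gene Ajuba with 40 and 9 reads. None of the 8 was higher (against 10.6% of all genes). Gfi1b had 176 and 123 reads and a log2 ratio of 0.19 (interval -0.15 to 0.53). Kdm1a, the histone demethylase that Gfi1 recruits, had 195 and 141 reads and a log2 ratio of 0.24 (interval -0.08 to 0.56). Of 8 genes known to be repressed by Gfi1, 1 was lower (12.5%), the macrophage factor gene Egr2 with 82 and 20 reads, none was higher, and their median log2 ratio was -0.04. Id2, an inhibitor of basic helix-loop-helix factors, had 351 and 216 reads and a log2 ratio of 0.01 (interval -0.24 to 0.26), and Bax, an apoptosis gene, 928 and 924 reads and 0.70 (0.57 to 0.84).

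None of 8 relatives, coactivators and target genes of Myb passed either limit, where 10.6% of all genes were higher and 15.6% lower. With 8 genes, such shares stand for few genes. The median log2 ratio of the list was 0.30. Ccnb1, a mitotic cyclin, was closest, with 393 and 480 reads and a log2 ratio of 0.998. Kit, the stem cell factor receptor used in the sort, had a log2 ratio of -0.55, and Bcl2, an anti-apoptotic target of Myb, 0.61.

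Of 8 receptor genes activated by C/EBP and Pu.1, 2 were higher (25%, against 10.6% of all genes) and none was lower (against 15.6%), with a median log2 ratio of 0.56. Fcgr3, an IgG receptor of myeloid and mast cells, had 236 and 558 reads and a ratio of 3.87. Csf2rb, the common beta chain of the receptors for GM-CSF, IL-3 and IL-5, had 298 and 665 reads and a ratio of 3.65. Csf3r, the receptor of G-CSF and a target of C/EBPα, had 644 and 290 reads and a log2 ratio of -0.44, and Csf1r, the M-CSF receptor and a target of Pu.1, had 110 and 127 reads and a log2 ratio of 0.92.

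The granule and myeloid genes stood furthest from the other lists. Of 16 genes, 12 had a ratio of at least 2 (75.0%, against 10.6% of all genes). None had a ratio of at most 0.5 (against 15.6%), and the median log2 ratio was 2.28. Lcn2 (lipocalin) had 32 and 279 reads and a ratio of 14.3, Ms4a3, a gene of granulocyte and monocyte progenitors, 447 and 3211 reads and a ratio of 11.7, and Cybb (an oxidase subunit) 35 and 233 reads and a ratio of 10.9. Ctsg of the primary granules, with 2423 and 10942 reads, and Ltf of the secondary granules, with 63 and 249 reads, had ratios of 7.39 and 6.46. Lyz2, a lysozyme of mature myeloid cells, had 1433 and 1007 reads and a log2 ratio of 0.20. The list shares 6 genes with the neutrophil markers. Without them, 6 of 10 genes reached a ratio of 2, and the median log2 ratio was 2.07.

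**Figure D5:**
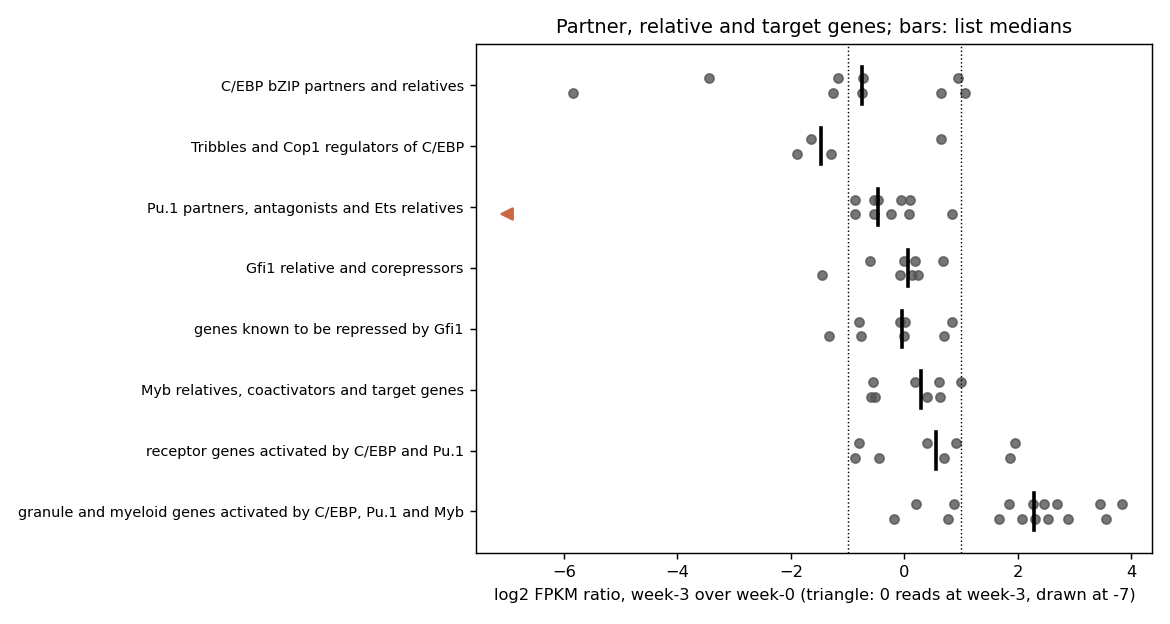
Log2 FPKM ratio of week-3 over week-0 for the genes of the 8 lists with 20 or more reads (1 point per gene, vertical bars at list medians, dotted lines at ratios of 0.5 and 2). The triangle is Irf4, which had 0 reads at week-3 and is drawn at the left edge. The granule and myeloid list has its median at 2.28, and the Tribbles and Cop1 list at -1.47.

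Annotated genes overlap several members, and how the authors' counting treated shared bases or strand is not given in the sources used here. Cebpb shares 312 exonic bases with Tmem189 on the other strand, which had 121 and 87 reads and a log2 ratio of 0.23 (interval -0.18 to 0.64), where Cebpb was at -1.68. Cebpz shares 171 exonic bases with Cebpzos, which had 39 and 18 reads. Gfi1 shares 101 exonic bases with the antisense transcript A430072P03Rik, which had 5 and 15 reads and a log2 ratio of 2.29 (interval 0.76 to 4.11), close to that of Gfi1. Reads of such pairs cannot be told apart without strand. The antisense genes over Cebpa and Myb had at most 3 reads in either library, and the transcripts over Cebpg at most 5. Of the nearest coding neighbours, Slc39a13 (184 and 40 reads) and Mybpc3 (44 and 8 reads), on either side of Spi1, had log2 ratios of -1.49 and -1.75, while Spi1 between them was at 0.04. Pepd, 1714 bases from Cebpg, had 368 and 271 reads and a log2 ratio of 0.27. The other coding neighbours with enough reads (Evi5, Spidr, 1700123O20Rik, Slc7a8, Mzt2, Ndufaf7 and Ahi1) had log2 ratios from -0.61 to 0.85.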

How the data were processed

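RNA of sorted LSKs was made into cDNA with a low-input kit and sequenced as paired ends. The authors cleaned the reads and aligned them to mm10 (GRCm38) with TopHat2 2.0.9, as the submitters' processing notes name them. The counting tool, its strand setting and the annotation release are not given in the sources used here. The authors deposited raw counts of reads per gene, and FPKM scaled by exon length and by the reads on genes of each library. Tables were joined by Ensembl identifier, and where rows shared a symbol the one with most reads was used.

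The members, gene lists, pairs and limits were chosen with earlier results of these data known. Genes with at least 20 reads over both libraries were counted at FPKM ratios of at least 2 and at most 0.5, and from each list up to 5 genes furthest from 1 among these were named. Pair genes, overlapping genes and nearest neighbours within 100 kb were named too. List genes between the limits were named for their roles after their values were seen. Intervals are exact (Clopper-Pearson for a gene, conditional odds ratio for a pair). Alternatives were TMM (edgeR 4.0.16), median-of-ratios scaling (DESeq2 1.42.0), TPM, pseudocounts of 1 and 0.1 FPKM, other minimum reads and limits, and edgeR's exact test across all genes, adjusted by Benjamini-Hochberg, with an assumed dispersion because 1 library per time point gives none. Merged exon lengths from GENCODE M21 were added after seeing the data. Procedures were tested on simulated data. The software was R 4.3.3 and Python 3.11.15 with scipy 1.17.1.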

Additional observations from a re-analysis of the deposited data

How the results depend on the processing

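No called gene changed direction under the alternatives, but none of them could bring this about. The scalings shifted log2 ratios by at most 0.11, and a pseudocount keeps the sign of a log2 ratio. Of 145 values recomputed, 128 were counted as unchanged. For log2 ratios this meant staying within the counting interval, and for counts of genes within 1.5 times the value in the report. By that rule the fall from 4 to 3 higher members with TMM counted as unchanged. The shares within the C/EBP family are also among the 145 values, but they were judged by a different rule. Most of the values not counted as unchanged were such shares, and these are printed below. All 9 members had reads in each library and at least 100 over both, so the other minimum reads could not move their values. These settings are nevertheless among the 128. Relative to total-read scaling, TMM shifted every log2 ratio by -0.11, median-of-ratios by -0.09 and TPM by -0.04. Spi1 then had a log2 ratio of -0.071 with TMM and -0.048 with median-of-ratios in place of 0.041, and with these scalings 0 of 9 bZIP partners and relatives of C/EBP reached a ratio of 2, in place of 1. A pseudocount of 1 FPKM gave Gfi1 a log2 ratio of 1.47. With the edgeR test at an assumed coefficient of variation of 0.4, 0 members were called in either direction, and over all 12192 genes 50 were called higher and 199 lower, in place of 1293 and 1903 by the limits alone. Shares within the C/EBP family depend on the length used. Per read, Cebpa held 14.8% at week-0 and 26.9% at week-3, Cebpd 31.5% and 31.5%, Cebpe 12.4% and 24.3%, and Cebpg 14.8% and 11.1%. Per merged exon length, Cebpa held 8.98% and 16.3%. No paired analysis was possible because each time point has 1 library, and for the same reason none could be left out. Of the members, Gfi1 (37 reads) had the fewest reads at week-0 and Cebpb (36 reads) at week-3. List genes with 20 reads or fewer in a library, such as Ajuba, Trib2, Trib3, Dbp and Irf4, rest on fewer still.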
